A study of Homo sapiens with 8 samples.

Results

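The 37 genes described here encode the machinery that takes glucose into the cell, splits it to pyruvate and lactate, and passes pyruvate to the mitochondrion, together with the hypoxia-inducible factors (HIF) and 7 of their other target genes. They were chosen by name, as 21 genes of glycolysis and lactate formation, 7 genes of the pyruvate dehydrogenase step and 9 genes of the HIF response, out of 40693 gene symbols in the tables. RNA sequencing had been done on total RNA of SW480 and SW620, established human colorectal adenocarcinoma lines labelled Dukes' type B and type C, with 1 untreated library each. SW620 cells carrying a short hairpin RNA against the transcription factor FOXA2 (shFOXA2) gave 3 libraries, and SW620 cells carrying a control hairpin (shNC) gave 3. Both hairpin groups carry a lentiviral vector with a U6 promoter, a puromycin resistance gene and mCherry, and are stable puromycin-selected populations. The sample names point to the first of the FOXA2 hairpins in the protocol without spelling it out, so the shFOXA2 group stands for 1 hairpin. The labels name no low-oxygen treatment.

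Glucose enters through transporters of the SLC2A family, is trapped by hexokinase and committed to glycolysis by phosphofructokinase. Pyruvate is then either reduced to lactate by lactate dehydrogenase or oxidised by the pyruvate dehydrogenase complex, which is switched off by its kinases (PDK) and on again by its phosphatases (PDP). HIF1A and EPAS1 are the oxygen-sensitive alpha subunits of HIF, which binds a short core sequence near many of these genes, and tumour cells are known for high glycolytic flux.

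The targets of the hairpins named in the protocol are shown because the fall of FOXA2 checks the labels and because part of the first target also lies in a gene described below. Capitals mark bases 11 to 18, counted from 1 at the 5′ end, which hold the stretch searched for in 3′ UTRs.
FOXA2-shRNA1: gaacggcatgAACACGTAcat
FOXA2-shRNA2: gcaagggagaagaaatccata
shControl: caacaagatgaagagcaccaa
FOXA2 stood at 52.4, 48.9 and 51.8 CPM (the count relative to the library total, scaled by TMM between libraries) in shNC replicates 1 to 3 and at 30.2, 29.3 and 22.2 CPM in shFOXA2. The groups did not overlap, and the log2 fold change was -0.91 (SE 0.09, edgeR adjusted p = 6.88e-10), so the knockdown was partial. Untreated SW620 held 81.0 CPM of FOXA2 and SW480 4.50 CPM.

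Total counts were 72323506 in SW480, 95935348 in SW620 and 7478411 to 13076566 in the hairpin libraries, so that the smallest level distinguishable from 0, at 3 counts, was 0.0313 to 0.401 CPM. Nothing in the labels says whether replicates came from separate cultures, and p-values then measure only the spread between these libraries, which may be technical. Replicate 1 of shFOXA2 stood apart: 62 genes with at least 30 counts were at least 4-fold above every other hairpin library there, against 14 in shNC replicate 1 and 0 in the rest, and ALDOC and BNIP3 were among the 62. The 13 colorectal epithelial markers summed to 5973 to 8905 CPM in every library and none of them was at 0 throughout. The 13 hepatocyte markers summed to 187 CPM in shFOXA2 replicate 1 and to at most 35.6 CPM in the other hairpin libraries, with TTR and FGB at 0 in all. The 11 fibroblast and endothelial markers summed to 11.8 to 16.8 CPM in shNC and 16.8 to 23.0 in shFOXA2, with COL1A2 and COL3A1 at 0, and the 12 leukocyte markers to 22.9 to 28.8 and 32.7 to 40.9, with MS4A1 at 0. The part of other cells in the results was not tested. In bulk RNA, a change in the share of cells that express a gene and a change per cell cannot be told apart.

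After FOXA2 knockdown the glucose transporters SLC2A1, SLC2A3 and SLC2A14, the hexokinases HK1 and HK2, the phosphofructokinase PFKM and the phosphatase PDP1 rose. PFKP, PFKL and TPI1 fell. CA9 was also called lower, but that call was lost when any shFOXA2 library was left out. Of the 37 genes, 36 passed the expression filter, and EPAS1 did not. Among the 36, 19 were called changed at an edgeR adjusted p under 0.05 (52.8%), where 39% of all 16100 genes tested were called. Of these, 12 rose, against 19.2% of all genes, and 7 fell, against 19.8%. The groups did not overlap for 19 of the 36, against 48.7% of all genes. The median log2 fold change of the 36 was 0.04, beside 0.01 over all genes, and the 19 called genes had a median size of change of 0.44, beside 0.36 for all called genes. SLC2A3, SLC2A14 and PDP1 were the 3 called genes that changed at least 2-fold, a size that 2.83% of all genes reached with a call. SLC2A3 and SLC2A14 can share reads, so gene counts here and between the lines may hold the same signal under both names. The count of genes that fell rests on single libraries, since it was 4 without shFOXA2 replicate 3 and 4 without shNC replicate 1. The plot of fold changes shows the genes in the order of the pathway.

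**Figure D1:**
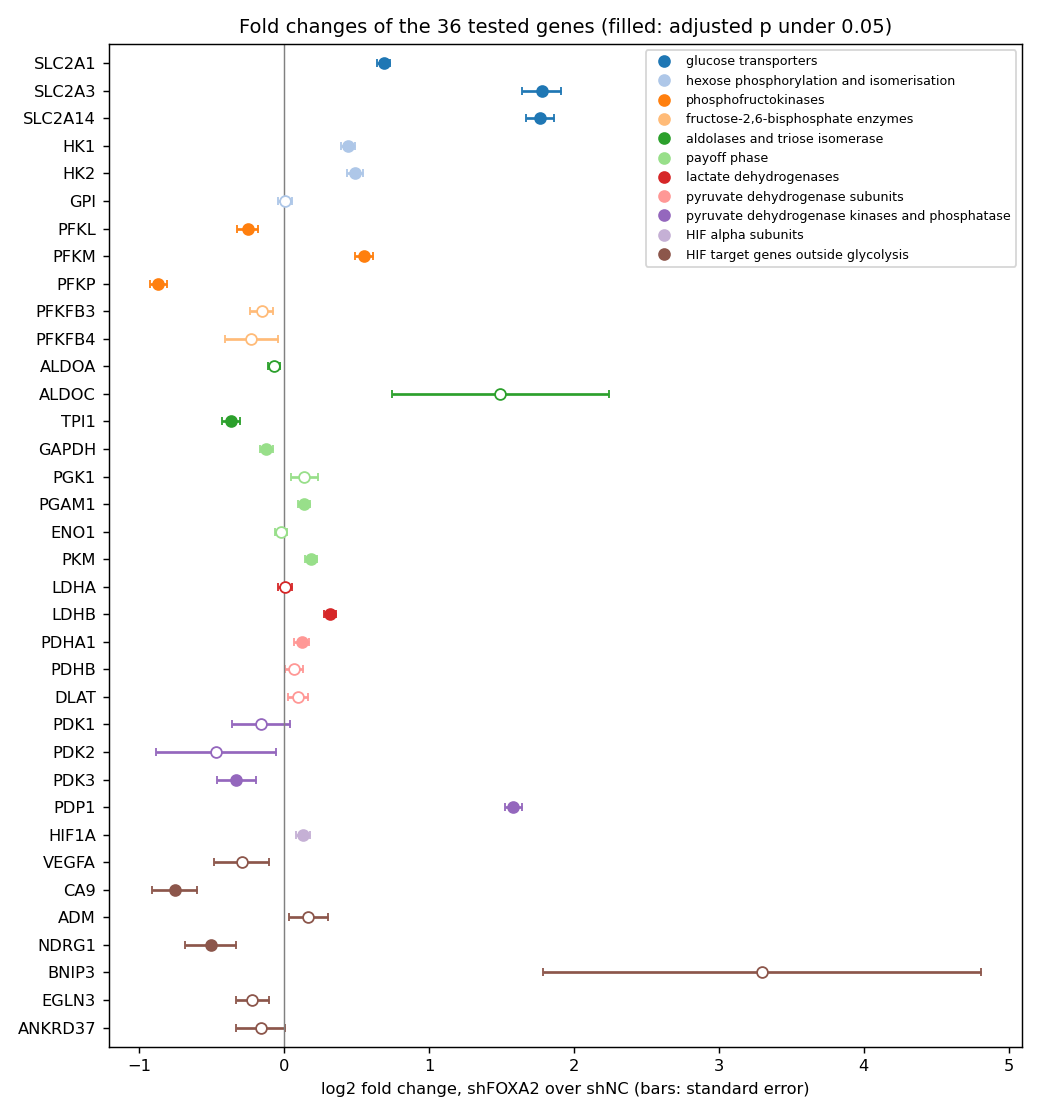
Log2 fold change of shFOXA2 over shNC (horizontal axis) for the 36 tested genes in pathway order, with bars of 1 standard error and filled points for an edgeR adjusted p under 0.05 (3 libraries a group). SLC2A3 at 1.78, SLC2A14 at 1.77 and PDP1 at 1.58 lie farthest right among the filled points and PFKP at -0.87 farthest left, while BNIP3 and ALDOC have the widest bars.

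SLC2A1, the broadly expressed glucose transporter GLUT1, stood at 971, 916 and 886 CPM in shNC and at 1438, 1524 and 1503 CPM in shFOXA2. Every shFOXA2 library lay above every shNC library. The rise from 924 ± 42.9 to 1488 ± 45.0 CPM (SD, n = 3) was 1.61-fold (log2 fold change 0.69, SE 0.04, edgeR adjusted p = 2.68e-17). SLC2A1 lies at chr1:42925375-42959176 on the minus strand of GRCh38, and of 36 members with a 3′ UTR searched it alone (2.78%) holds a 7-base stretch of the hairpin target marked above, where 5.89% of 12929 genes searched hold one.
SLC2A1 3′ UTR, chr1:42926032-42926038, minus strand: tccagtcccttACACGTAcctctcatcag
The 7 capitals mark the stretch. Among all searched genes with such a stretch 130 rose and 283 fell (median log2 fold change -0.08), and among those without it 2708 rose and 2525 fell (median 0.02). These stretches had been picked in earlier work on the same libraries. The hairpin's direct part in the SLC2A1 value was not tested.

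SLC2A3 encodes GLUT3, a transporter of high glucose affinity typical of neurons. It stood at 57.6, 44.5 and 43.4 CPM in shNC and at 154, 173 and 174 CPM in shFOXA2. The lowest shFOXA2 value lay well above the highest shNC value, and the change was 3.43-fold (log2 fold change 1.78, SE 0.13, edgeR adjusted p = 4.40e-04). SLC2A14, a duplicate of SLC2A3, stood at 13.4, 11.1 and 11.2 CPM in shNC and at 35.8, 42.6 and 43.8 CPM in shFOXA2, a 3.40-fold change (log2 fold change 1.77, SE 0.10, edgeR adjusted p = 7.72e-19). These are neighbours on the minus strand of chromosome 12, at chr12:7919230-7936275 for SLC2A3 and chr12:7812512-7891148 for SLC2A14 in GRCh38. Their coding sequences match at 1440 of 1488 aligned bases (96.8%), with 8 identical runs of at least 50 bases and a longest run of 137. A 60-base window with 4 differences, from coding base 9 of SLC2A3 and 126 of SLC2A14, shows how little separates them. Capitals mark the differing bases.
SLC2A3: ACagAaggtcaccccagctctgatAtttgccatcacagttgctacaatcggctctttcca
SLC2A14: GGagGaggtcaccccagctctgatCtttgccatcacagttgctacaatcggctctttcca
Reads from such stretches can be counted for either gene, so the split between them is uncertain. SLC2A14 took 6.38% of the counts of the pair in SW480, 6.13% in SW620 and 18.8% to 20.5% in the 6 hairpin libraries, where the shares in shNC and shFOXA2 overlapped.

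Per length, SLC2A1 remained the more abundant transporter in SW620. The authors' RPKM value, which is scaled by gene length and library total, was 220.0 ± 6.74 (SD, n = 3) for SLC2A1 and 7.87 ± 1.15 for SLC2A3 in shNC. By counts per listed kilobase, SLC2A3 made up 3.45 ± 0.386% of the SLC2A1 and SLC2A3 total in shNC and 7.10 ± 0.268% in shFOXA2 (SD, n = 3; two-sided exact permutation p = 0.1, the smallest that 3 against 3 allows, adjusted 0.2 over 10 shares). In untreated SW480 that share was 56.5% and in untreated SW620 5.21%.

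**Figure D2:**
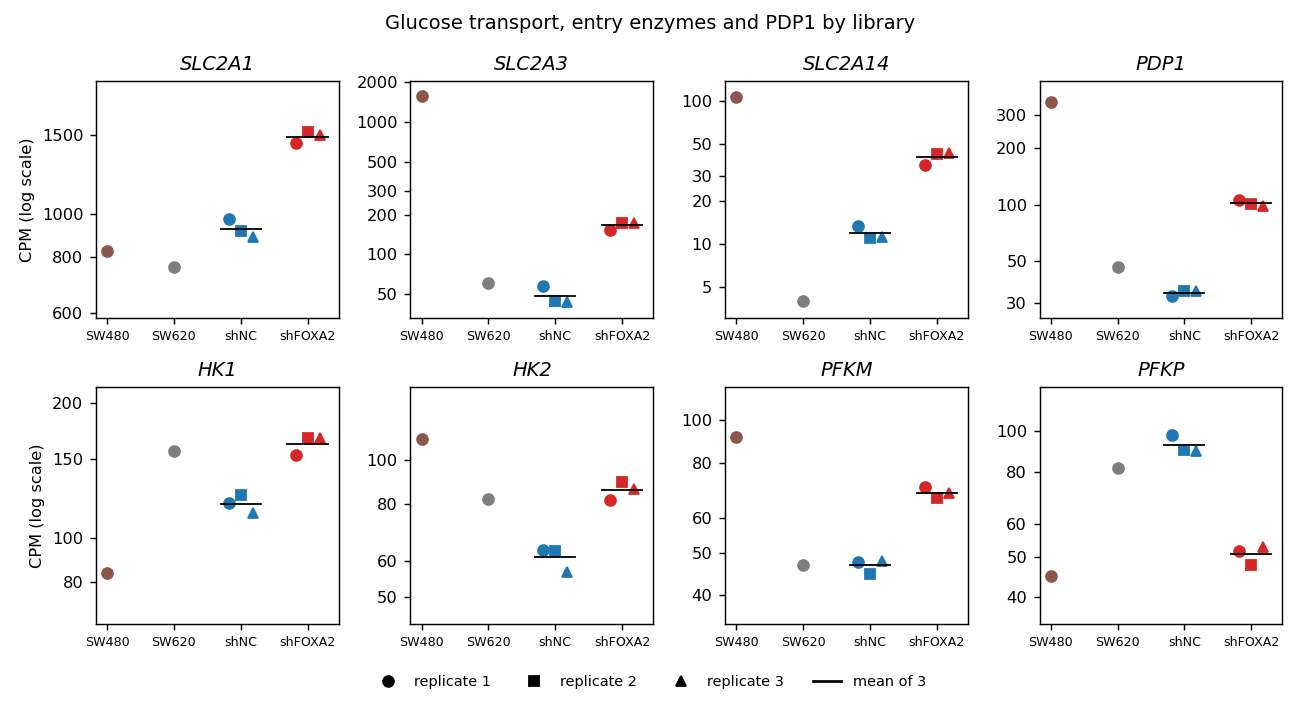
Level in CPM (vertical axes, log scale) of SLC2A1, SLC2A3, SLC2A14, PDP1, HK1, HK2, PFKM and PFKP in untreated SW480 and SW620 (1 library each), shNC and shFOXA2 (3 libraries each, marker shape for replicate, line at the mean). In all 8 panels the shNC and shFOXA2 points are separate, PFKP is the one panel with shFOXA2 below shNC, and SW480 stands above every other library for SLC2A3, SLC2A14, PDP1, HK2 and PFKM.

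Both hexokinases, which phosphorylate glucose, rose in parallel. HK1 stood at 119.7, 125 and 114 CPM in shNC and at 154, 167 and 167 CPM in shFOXA2 (log2 fold change 0.44, SE 0.05, edgeR adjusted p = 4.80e-10). HK2, the inducible form of many tumours, stood at 63.5, 63.1 and 56.7 CPM in shNC and at 82.0, 89.7 and 86.3 CPM in shFOXA2 (log2 fold change 0.49, SE 0.06, edgeR adjusted p = 1.93e-09). Neither gene's groups overlapped. HK2 shares 8.16% of its 50-base sequences with other genes, chiefly the pseudogene HK2P1. The share of HK2 in the pair was 34.2 ± 0.729% in shNC and 35.0 ± 0.468% in shFOXA2 (SD, n = 3; exact permutation p = 0.2), and these groups overlapped. GPI, which isomerises glucose 6-phosphate, did not pass the test at 292 ± 26.4 and 293 ± 2.06 CPM.

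The phosphofructokinase subunits, which form the tetramer of the committed step, moved in opposite directions. PFKP, the platelet form, stood at 98.0, 90.3 and 89.8 CPM in shNC and at 51.6, 47.8 and 52.8 CPM in shFOXA2. It was 1.82-fold lower after knockdown without overlap (log2 fold change -0.87, SE 0.06, edgeR adjusted p = 2.43e-16). PFKM, the muscle form, stood at 47.7, 44.8 and 47.8 CPM in shNC and at 70.4, 66.6 and 68.2 CPM in shFOXA2, a 1.46-fold rise without overlap (log2 fold change 0.55, SE 0.06, edgeR adjusted p = 4.69e-10). PFKL, the liver form, fell from 59.4 ± 5.59 to 49.98 ± 4.06 CPM (log2 fold change -0.25, SE 0.07, edgeR adjusted p = 0.00421). PFKP was thus the largest part of the family in shNC, at 59.5 ± 1.21% of the counts per kilobase, and took 41.2 ± 1.73% in shFOXA2 (SD, n = 3), a difference of -18.3 percentage points. PFKM went from 19.9 ± 0.670% to 36.8 ± 0.225%, a difference of 16.9 points. For both subunits the exact permutation p was 0.1, adjusted 0.2 over the 10 shares, with no overlap between groups. PFKL took 20.6 ± 1.03% and 22.0 ± 1.87% (exact permutation p = 0.4). Untreated SW480 had 30.5% PFKP and 41.2% PFKM, and untreated SW620 53.1% and 20.2%.

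**Figure D3:**
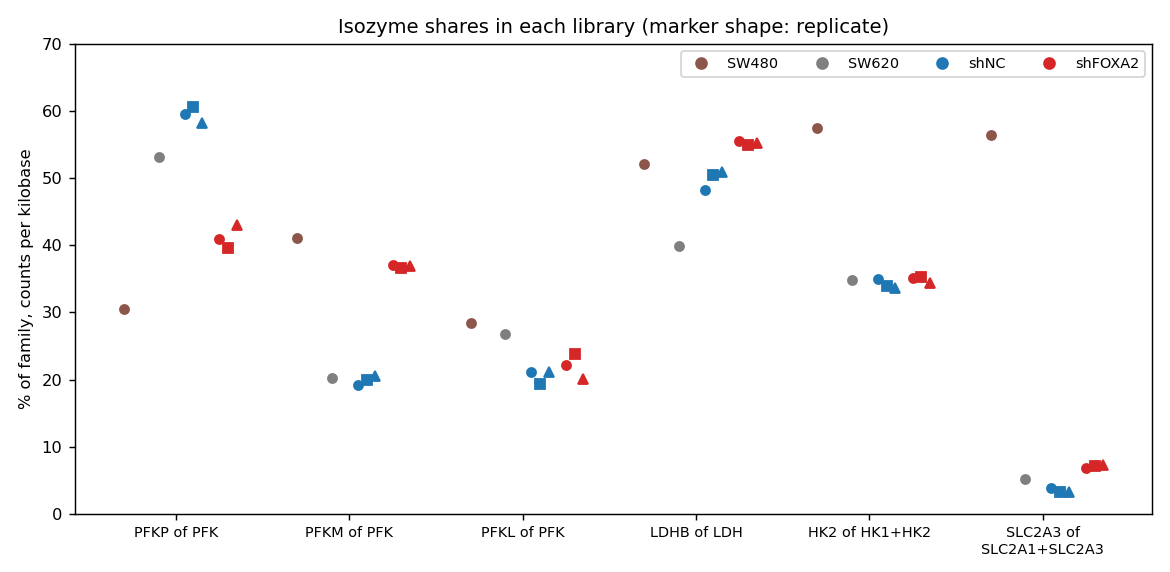
Share of each isozyme in its family as percent of counts per listed kilobase (vertical axis) in every library, coloured by group and shaped by replicate. PFKP lies at 58.3 to 60.7% in shNC and 39.7 to 43.1% in shFOXA2, PFKM at 19.2 to 20.6% and 36.6 to 37.0%, and the shares of PFKL and HK2 overlap between the hairpin groups.

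PFKFB3 and PFKFB4 make and break fructose 2,6-bisphosphate, the activator of phosphofructokinase. PFKFB3 stood at 33.2 ± 0.772 CPM in shNC and 29.9 ± 0.588 in shFOXA2, without overlap but with an edgeR adjusted p of 0.115. PFKFB4 stood at 25.2, 15.1 and 17.5 CPM in shNC and 16.9, 16.4 and 16.2 CPM in shFOXA2, where shNC replicate 1 was high, and its adjusted p was 0.381. Without shNC replicate 2 it was called (log2 fold change -0.38, adjusted p = 0.0166), and its adjusted p ran from 0.0166 to 0.988 over the alternatives.

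In the lower part of the pathway most changes were small. TPI1, which interconverts the triose phosphates, stood at 600.3, 502 and 498 CPM in shNC and at 409, 423 and 411 CPM in shFOXA2. It fell by 0.37 on the log2 scale (SE 0.06, edgeR adjusted p = 6.55e-04) without overlap, and 12.6% of its 50-base sequences also lie in other genes, chiefly the pseudogene TPI1P1. PKM, the pyruvate kinase gene, rose from 2099 ± 52.0 to 2388 ± 93.8 CPM (log2 fold change 0.19, SE 0.04, edgeR adjusted p = 2.73e-04). PGAM1, phosphoglycerate mutase, rose from 846 ± 47.4 to 932 ± 37.6 CPM (log2 fold change 0.14, SE 0.04, edgeR adjusted p = 0.00970). That call was lost without shFOXA2 replicate 2, shNC replicate 2 or shNC replicate 3, and the adjusted p ran from 4.03e-04 to 0.135 over the alternatives. PGAM1 shares 30.5% of its 50-base sequences with other genes, the most of these 37. PGAM4, a near-identical copy, took 12.4% of the counts of PGAM1 and PGAM4 in each untreated line and 29.7% to 31.1% in the hairpin libraries, so the level of PGAM1, its rank and its ratio between the lines are uncertain. GAPDH, often used as a reference gene, was called lower by a small margin (2413 ± 169.6 and 2217 ± 102 CPM, log2 fold change -0.12, edgeR adjusted p = 0.0332). Its groups overlapped and the call was lost without shFOXA2 replicate 1, shFOXA2 replicate 3 or shNC replicate 1, with adjusted p from 5.15e-04 to 0.443 over the alternatives.

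ALDOA, PGK1 and ENO1, the main aldolase, phosphoglycerate kinase and enolase, did not pass the test, with log2 fold changes of -0.07, 0.14 and -0.02. PGK1 was high in shNC replicate 1, at 654 CPM beside 522 and 545, and without that library it was called higher (log2 fold change 0.23, adjusted p = 1.40e-05, with 9.03e-07 to 0.566 over the alternatives). ALDOC, an aldolase of brain and a known HIF target, stood at 4.97, 4.38 and 4.39 CPM in shNC and at 25.04, 6.10 and 5.996 CPM in shFOXA2. Its fitted log2 fold change of 1.49 (SE 0.75, edgeR adjusted p = 0.207) came mainly from replicate 1 and was 0.40 without it (adjusted p = 0.133, with 0.0970 to 0.374 over the alternatives).

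Lactate dehydrogenase moved in 1 of its 2 subunit genes. LDHB, the heart-type subunit, stood at 515, 488 and 503 CPM in shNC and at 621, 646 and 607 CPM in shFOXA2. The groups were separate (log2 fold change 0.32, SE 0.04, edgeR adjusted p = 3.89e-08). LDHA, the muscle-type subunit, stood at 1148, 993 and 1010.1 CPM in shNC and at 1036, 1101 and 1025 CPM in shFOXA2, with overlapping groups (log2 fold change 0.00, edgeR adjusted p = 0.955). LDHB made up 49.9 ± 1.42% of the pair per kilobase in shNC and 55.2 ± 0.253% in shFOXA2 (SD, n = 3; exact permutation p = 0.1, adjusted 0.2). The level of this share depends on the listed lengths of the 2 genes.

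By RPKM in shNC, the most abundant of the 37 were GAPDH (812 ± 44.2), ENO1 (588 ± 19.5), PGAM1 (330.0 ± 14.7, uncertain as above), PKM (245 ± 3.17), SLC2A1 and TPI1 (198 ± 18.3), each mean ± SD over 3 libraries. LDHA at 169.3 ± 11.2 and LDHB at 168.6 ± 3.55 followed. These close values rest on listed lengths of 6210 bases for LDHA and 2983 for LDHB. In CPM, LDHA stood at 1050 and LDHB at 502 in shNC. How well listed lengths match the transcripts expressed was not tested, and the SD does not cover it. This limits the ranking and the shares per kilobase. EPAS1 was the lowest, at 0.0760 ± 0.0245. The 21 genes of glycolysis and lactate formation together took 1.24% to 1.34% of all counts in shNC, 1.34% to 1.40% in shFOXA2, 1.18% in SW480 and 0.999% in SW620. Of these 21, 9 rose, 4 fell and 8 did not pass the test (61.9% called, beside 39% of all genes tested).

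At the pyruvate dehydrogenase step the phosphatase PDP1 had a larger fold change than the member subunits PDHA1, PDHB and DLAT. PDP1, which reactivates the complex, stood at 32.5, 34.8 and 34.8 CPM in shNC and at 106, 100.2 and 98.7 CPM in shFOXA2. Spread within each group was small and the rise was 2.99-fold (log2 fold change 1.58, SE 0.06, edgeR adjusted p = 1.55e-24). PDHA1, the E1 alpha subunit, was called at 143 ± 5.44 and 155 ± 11.2 CPM (log2 fold change 0.12, SE 0.05, edgeR adjusted p = 0.0488). Its groups overlapped, and 8 of 14 alternatives, among them leaving out shFOXA2 replicate 2, shNC replicate 2 or shNC replicate 3 and the replicate block (adjusted p = 0.0628), lost the call, with adjusted p from 0.00764 to 0.361. PDHB, the E1 beta subunit, and DLAT, the E2 subunit, had log2 fold changes of 0.07 and 0.10 and did not pass the test.

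Of the kinases that oppose PDP1, the 3 members PDK1, PDK2 and PDK3 were not called higher, while PDK4, which is not a member and is named here after its values were seen, was. PDK4 was low, at 16, 13 and 14 counts in shNC and 37, 15 and 27 in shFOXA2, and rose from 1.13 ± 0.123 to 2.61 ± 0.533 CPM (log2 fold change 1.23, SE 0.30, edgeR adjusted p = 7.70e-04). PDK3 stood at 12.4, 11.6 and 13.7 CPM in shNC and at 10.9, 11.5 and 7.69 CPM in shFOXA2, and was called lower by a narrow margin (log2 fold change -0.33, SE 0.14, edgeR adjusted p = 0.0490). The call was lost without shFOXA2 replicate 3, shNC replicate 1 or shNC replicate 3 and with the replicate block (adjusted p = 0.0633), with 0.0227 to 0.360 over the alternatives. PDK1, a HIF target, stood at 26.8, 16.4 and 18.3 CPM in shNC and at 19.9, 16.7 and 18.1 CPM in shFOXA2, with overlap (edgeR adjusted p = 0.599). PDK2 stood at 7.30, 6.53 and 6.25 CPM in shNC and at 7.26, 4.88 and 2.10 CPM in shFOXA2, spread widely after knockdown (edgeR adjusted p = 0.441), and without shFOXA2 replicate 1 it was called lower (log2 fold change -1.01, adjusted p = 6.57e-04, with 5.32e-04 to 0.700 over the alternatives).

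Among the HIF genes 1 of 8 tested rose and 2 fell (median log2 fold change -0.19). That is 37.5% called, close to the 39% of all genes tested. HIF1A rose from 124 ± 3.94 to 136 ± 6.12 CPM (log2 fold change 0.13, SE 0.05, edgeR adjusted p = 0.0262). Its call was lost without shFOXA2 replicate 1, shFOXA2 replicate 3, shNC replicate 2 or shNC replicate 3, with adjusted p from 0.0124 to 0.207 over the alternatives. EPAS1, which encodes HIF-2 alpha, had 7, 5 and 9 counts in shNC and 12, 6 and 10 in shFOXA2, too few to test.

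CA9, a membrane carbonic anhydrase and a standard hypoxia marker, stood at 56.3, 38.4 and 41.7 CPM in shNC and at 27.7, 27.5 and 25.7 CPM in shFOXA2. The shFOXA2 libraries were close together and all below shNC (log2 fold change -0.75, SE 0.15, edgeR adjusted p = 0.00805). The call was lost when any shFOXA2 library was left out (adjusted p = 0.0801 without replicate 1, 0.0609 without 2 and 0.0713 without 3), with 5.90e-21 to 0.0801 over the alternatives. NDRG1, a stress- and hypoxia-induced gene, stood at 15.1, 11.3 and 8.37 CPM in shNC and at 7.76, 7.59 and 9.09 CPM in shFOXA2, with overlap (log2 fold change -0.50, SE 0.18, edgeR adjusted p = 0.0299). That call was lost without replicate 1 or replicate 2 of either group, with 6.73e-04 to 0.329 over the alternatives.

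BNIP3, a mitophagy receptor, stood at 6.21, 8.22 and 7.07 CPM in shNC and at 179.9, 10.3 and 12.4 CPM in shFOXA2. The groups did not overlap, but replicate 1 was far above the rest and the gene did not pass (log2 fold change 3.30, SE 1.51, edgeR adjusted p = 0.176). Without shFOXA2 replicate 1 the log2 fold change was 0.67 and was called (adjusted p = 7.92e-04, with 7.92e-04 to 0.423 over the alternatives). VEGFA, the endothelial growth factor, stood at 62.4, 68.0 and 72.9 CPM in shNC and at 69.4, 47.3 and 47.3 CPM in shFOXA2 (edgeR adjusted p = 0.320). Without shFOXA2 replicate 1 it was called lower (log2 fold change -0.52, adjusted p = 3.94e-08, with 4.37e-13 to 0.549 over the alternatives). ADM, EGLN3 and ANKRD37, a secreted peptide, an oxygen-sensing hydroxylase and a HIF target of little known function, had log2 fold changes of 0.17, -0.22 and -0.16 and did not pass. EGLN3 was called lower without shNC replicate 2 (adjusted p = 0.0199, with 0.0199 to 0.955 over the alternatives).

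**Figure D4:**
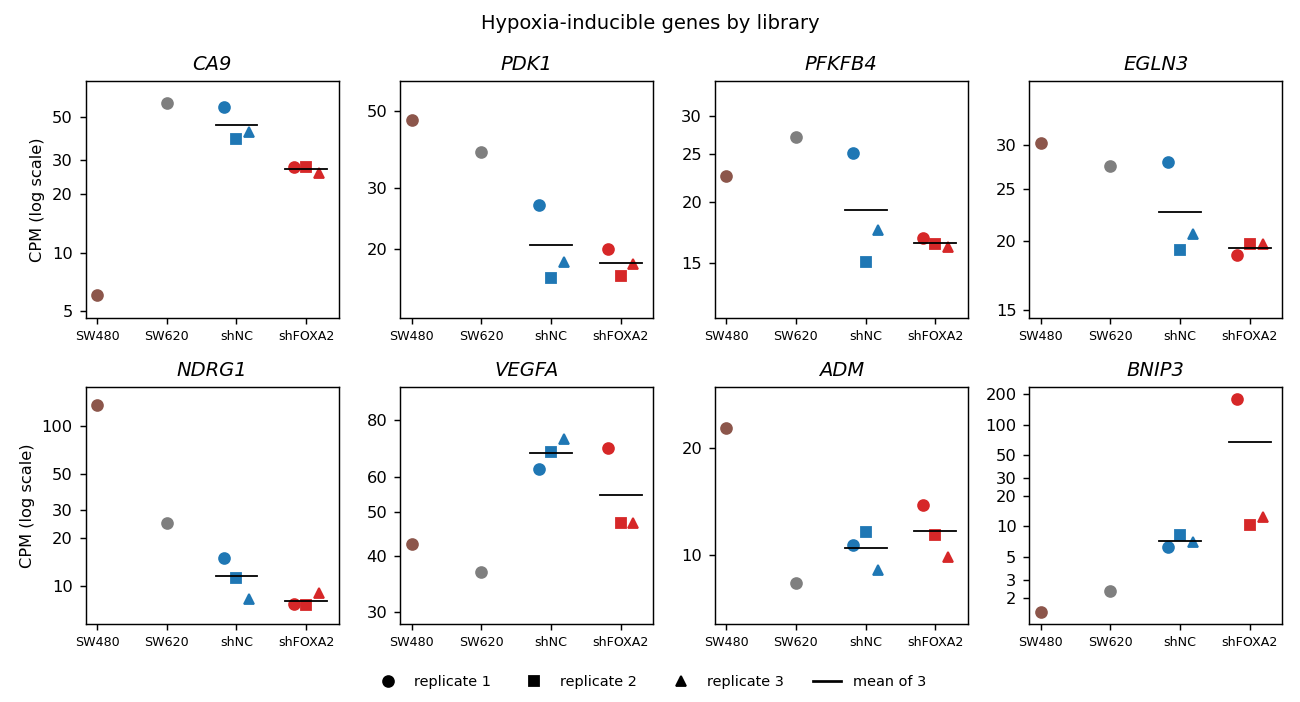
Level in CPM (vertical axes, log scale) of 8 hypoxia-inducible genes in each library, with a line at the mean of 3 for shNC and shFOXA2 and marker shape for replicate. CA9 is lower in all shFOXA2 libraries, BNIP3 reaches 179.9 CPM in shFOXA2 replicate 1, and shNC replicate 1 is the highest of its group for CA9, PDK1, PFKFB4, EGLN3 and NDRG1.

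Replicate 1 of shNC was the highest library of its group for 27 of the 36 tested genes, where this held for 37.9% of all genes. It lay at least 1.25-fold above both other shNC libraries for 6 of the 36 (SLC2A3, PFKFB4, PDK1, CA9, NDRG1 and EGLN3, 16.7%), against 3.79% of all genes. Replicate 1 of shFOXA2 did so for 4 (ALDOC, PDK2, VEGFA and BNIP3, 11.1%), against 5.27%, and the other 4 libraries for 0. Oxygen, cell density and passage are not in the labels, and their part in this was not tested. With both replicate 1 libraries left out, a choice made after seeing the data, 14 of the 36 genes rose and 7 fell, in a fit that called 36% of 16048 genes (2835 higher and 2946 lower).

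Promoters were looked at because HIF is a known regulator of many of these genes. RefSeq (GRCh38.p14) gave 250 bases before to 50 bases after the start for 33 of the 37 genes. The HIF core, searched as ACGTG or GCGTG and as CACGT or CACGC for the other strand, was found in 25 of 33 (75.8%), beside 48.4% of all 27305 promoters and 62.5% of the promoters of 10184 tested genes. A match to these 5 bases is a description and not a bound site. LDHA, with 6 matches, and CA9, with 1 match close to the start, are shown as the member with a high count of matches and a standard hypoxia marker. Capitals mark the matches, some of which overlap on opposite strands.
LDHA, chr11:18394313-18394612, plus strand: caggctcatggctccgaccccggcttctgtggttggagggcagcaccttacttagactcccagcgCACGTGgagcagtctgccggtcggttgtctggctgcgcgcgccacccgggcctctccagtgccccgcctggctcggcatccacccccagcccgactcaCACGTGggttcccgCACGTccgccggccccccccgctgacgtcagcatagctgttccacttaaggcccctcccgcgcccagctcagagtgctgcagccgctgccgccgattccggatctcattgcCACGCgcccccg
CA9, chr9:35673678-35673977, plus strand: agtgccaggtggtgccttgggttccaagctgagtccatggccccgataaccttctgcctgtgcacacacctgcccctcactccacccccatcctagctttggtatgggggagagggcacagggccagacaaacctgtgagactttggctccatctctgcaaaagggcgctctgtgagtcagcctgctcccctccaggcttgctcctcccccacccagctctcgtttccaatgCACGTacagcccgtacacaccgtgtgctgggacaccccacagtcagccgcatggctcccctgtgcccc
The forkhead sequences TGTTTAC and TGTTTGC, searched on both strands, were found in the window of 1 of the 33 (ALDOC, 3.03%), beside 7.15% of all promoters and 4.87% of those of tested genes.

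Between the untreated lines there was 1 library each and no test, so values carry intervals for counting error only. With 1 CPM added to each value, 9 of the 37 genes (24.3%) differed at least 2-fold, beside 16.8% of 21343 genes. The shares of all genes given here include genes from 20 counts up, whose ratios the added 1 CPM holds down. They are therefore not a like background for the 37 genes, which lie higher. With 0.1 CPM added, the share of all genes that reached 2-fold was larger than 24.3%, so no excess among the 37 genes is shown. CA9 and PGAM1 were higher in SW620, a direction that 7.99% of all genes took, and EPAS1, SLC2A3, SLC2A14, PDP1, NDRG1, ANKRD37 and ADM were higher in SW480, as were 8.85% of all genes. EPAS1 had 35089 counts in SW480 and 116 in SW620, a 415-fold difference (95% interval 346 to 503). SLC2A3 had 111009 and 5945 counts, 25.6-fold higher in SW480 (24.98 to 26.3), and SLC2A14 was 26.8-fold higher (24.2 to 29.7). PDP1 was 7.51-fold higher in SW480 (7.28 to 7.76). By RPKM the order of the transporters turned over: SLC2A3 stood at 249 and SLC2A1 at 192 in SW480, and at 10.1 and 183 in SW620.

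The HIF targets differed between the lines in both directions. NDRG1 was 5.43-fold (5.19 to 5.68), ANKRD37 3.81-fold (3.52 to 4.12) and ADM 2.73-fold (2.51 to 2.97) higher in SW480, while CA9 was 9.78-fold (8.86 to 10.8) and BNIP3 1.63-fold (1.28 to 2.08) higher in SW620. HIF1A differed little, at 143 CPM in SW480 and 133 in SW620. Among the enzymes, LDHB was 2.00-fold (1.97 to 2.02) and PFKM 1.96-fold (1.88 to 2.03) higher in SW480, just short of 2-fold with 1 CPM added, and PGAM1 was 2.14-fold (2.10 to 2.17), HK1 1.87-fold (1.81 to 1.92) and PFKP 1.82-fold (1.74 to 1.89) higher in SW620.

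**Figure D5:**
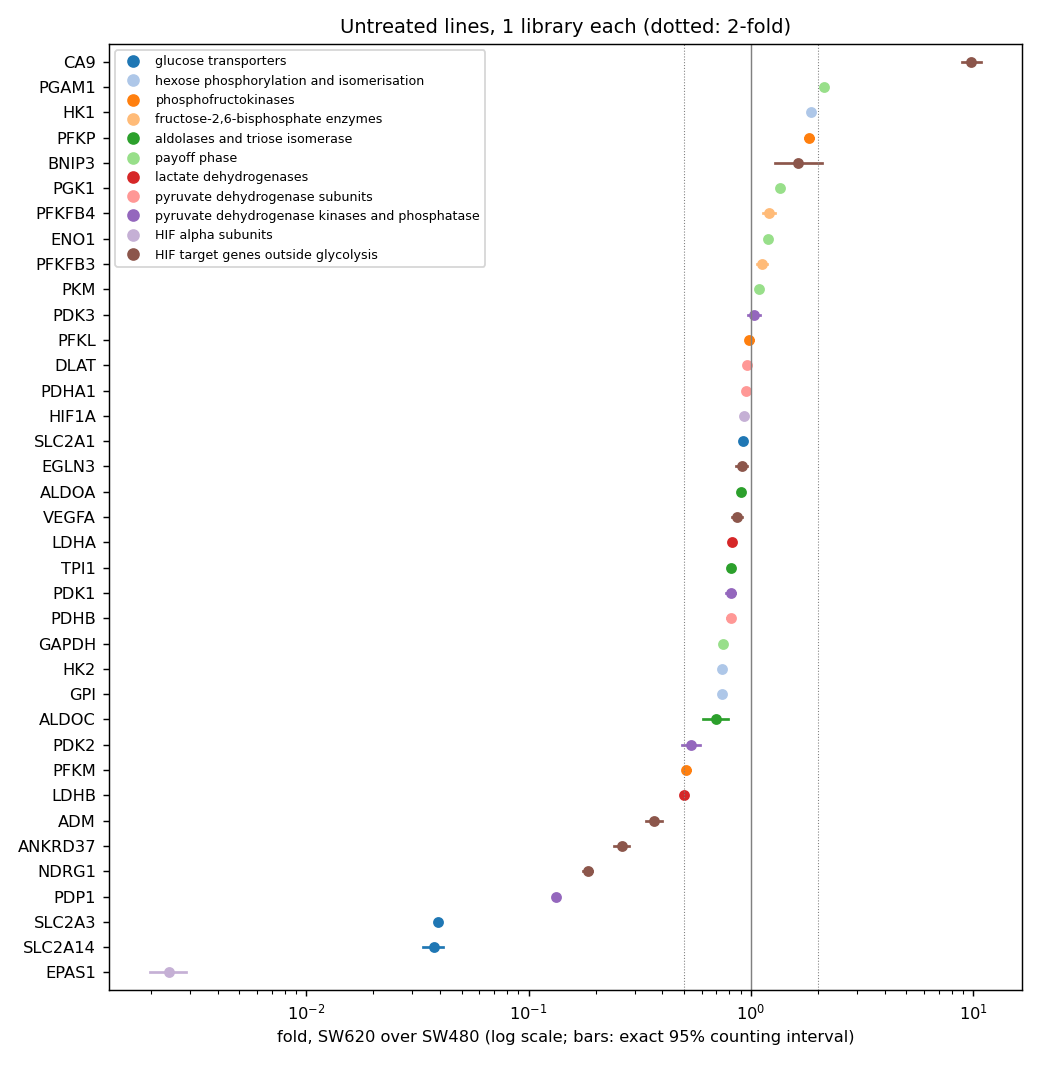
Ratio of the SW620 to the SW480 level (horizontal axis, log scale, no value added) for all 37 genes, sorted, with exact 95% counting intervals as bars and dotted lines at 2-fold. CA9 lies farthest toward SW620 at 9.78 and EPAS1 farthest toward SW480 at 0.00241, and most enzymes lie between the dotted lines.

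Of the genes called after knockdown, 6 also differed at least 2-fold between the lines. SLC2A3, SLC2A14, CA9 and PDP1 moved in shFOXA2 toward the SW480 side, and NDRG1 and PGAM1 moved away from it. These 4 of 6, with SLC2A3 and SLC2A14 counted separately, stand beside 69.6% of the 1290 genes that met both conditions. SLC2A3 after knockdown, at 167 ± 11.3 CPM, remained far below the 1566 CPM of SW480. Untreated SW620 differed from shNC in some members, for example 1310.3 CPM of ENO1 against 2242 to 2448, and mitochondrial transcripts took 11.1% of its counts against 4.46% to 4.82% in the hairpin libraries. Vector, selection, depth and library preparation cannot be told apart there, and TMM scaling was separate for the untreated and hairpin libraries.

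The rest of the pathway was read from 10 lists of 156 neighbouring genes, of which 133 were tested. Among them 24 rose and 37 fell (45.9% called, beside 39% of all genes tested). Their median log2 fold change was -0.05. In pyruvate and lactate transport, 1 of 7 tested genes rose and 3 fell. SLC16A1, the lactate carrier MCT1, rose from 179 ± 3.51 to 235 ± 9.28 CPM (log2 fold change 0.39), and MPC2, a subunit of the mitochondrial pyruvate carrier, fell from 45.4 ± 2.21 to 29.7 ± 1.33 CPM (-0.62). Of 8 further pyruvate dehydrogenase genes 3 rose and 3 fell, PDK4 among the former, and PDHX, the E3-binding subunit, rose from 47.7 ± 1.29 to 80.1 ± 3.91 CPM (0.75). In the citrate cycle 2 of 24 rose and 4 fell. There IDH1, a cytosolic isocitrate dehydrogenase, rose from 64.9 ± 4.67 to 99.6 ± 8.59 CPM (0.62) and SUCLG1, a succinyl-CoA ligase subunit, fell from 65.8 ± 1.41 to 36.6 ± 1.98 CPM (-0.85).

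Of 11 other glycolytic isozymes 2 rose and 2 fell, of 7 other glucose transporters 1 rose and 2 fell, of 14 gluconeogenesis and glycogen genes 1 rose and 4 fell, and of 8 pentose phosphate genes 1 rose and 3 fell. Of 13 genes of HIF and oxygen sensing 4 rose and 5 fell. HIF1AN, the hydroxylase that inhibits HIF, rose from 169.7 ± 5.79 to 233 ± 5.01 CPM (log2 fold change 0.46). EP300 (0.22) and CITED2 (0.53) rose as well. ARNT, the partner subunit of HIF1A, fell from 30.4 ± 1.51 to 19.8 ± 1.26 CPM (-0.62), and CREBBP (-0.48) and VHL (-0.31) also fell. Of 27 further HIF targets 5 rose and 6 fell. Those that rose included ERO1L (log2 fold change 0.53), P4HA2 (0.56) and BHLHE40 (0.34). Those that fell included ZNF395, a transcription factor, from 75.5 ± 7.67 to 22.4 ± 1.44 CPM (-1.75). HIGD1A, a mitochondrial protein, fell from 324 ± 2.47 to 175 ± 9.43 CPM (-0.89), and TFRC fell too (-0.67). Of 14 glucose-sensing and growth regulators 4 rose and 5 fell. The largest edgeR adjusted p among the neighbouring genes given with values after knockdown, apart from PDK4, was 6.99e-04, for CITED2. Between the untreated lines, PLOD2, a collagen-modifying HIF target, had 46 counts in SW480 and 3850 in SW620, a 61.0-fold difference (95% interval 45.6 to 83.4), the largest ratio toward SW620 named from these lists apart from a gene at 0 in SW480.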

How the data were processed

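RNA sequencing libraries of 8 samples were analysed from 1 deposited table each. The authors' tables give, for 42713 gene rows, raw read counts, a gene length and RPKM values. The submitters' processing notes name HOMER and hg19 without a role. Aligner, counting settings and annotation were not given in the sources used here. A directional kit was used, per the labels, but strand use in the counting is not stated, so overlapping antisense genes, as at HIF1A, may share counts. The deposited RPKM equal the counts over listed length and library total (100% of genes with over 20 counts, tolerance 1e-04), and served only to compare genes with each other.

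Where a symbol was repeated (256), the row with the highest summed count was used. Hairpin libraries were compared, 3 against 3, with edgeR 4.0.16 (quasi-likelihood, robust, two-sided, TMM scaling, default filter) in R 4.3.3, with Benjamini-Hochberg adjustment over all genes and a call at 0.05. Alternatives changed the scaling (DESeq2 1.42.0 size factors, total counts), the filter, the test (DESeq2 Wald, limma-voom in limma 3.58.1), the threshold, the handling of repeated symbols, a replicate block and the libraries included. Untreated lines were compared by TMM-scaled counts with exact 95% binomial intervals, and called at 2-fold with 1 CPM added and at least 20 counts in the higher library. Intervals cover counting error only. Isozyme shares used exact permutation tests. The edgeR fit was checked on simulated counts with the same spread for every gene and no outlying library, unlike replicate 1 of shFOXA2 here.

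Locations, 3′ UTRs and coding sequences came from GENCODE v29 (GRCh38) and promoters from RefSeq (GRCh38.p14), not the build in the notes. All members are named. Neighbouring genes could be named if among the 3 with the smallest adjusted p in their list and direction at a mean log2 CPM of at least 2, or, between the lines, among the 3 highest in either line, and the text gives some of these. The members and lists were chosen with earlier results of these data known, so their directions are not independent evidence.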

Additional observations from a re-analysis of the deposited data

How the results depend on the processing

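Of the 19 called members, 12 (SLC2A1, SLC2A3, SLC2A14, HK1, HK2, PFKL, PFKM, PFKP, TPI1, PKM, LDHB and PDP1) were called in the same direction in all 14 alternatives, and 11 of the 17 uncalled members were called in none. No call turned its direction. At an adjusted p under 0.01, 4 members fell. Leaving out each hairpin library in turn gave 9 to 13 members that rose and 4 to 8 that fell, 2502 to 2813 and 2796 to 3092 among all genes, and 22 to 26 and 33 to 40 in the neighbouring lists. The replicate numbers were not taken to pair the samples (correlations of deviations between same-numbered libraries -0.00443, -0.0468 and -0.00511). A fit with the replicate number as a block called 3022 genes higher and 3118 lower, and 11 and 6 of the members, with SLC2A3 at an adjusted p of 0.0162. The neighbouring lists then had 27 and 38.

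Between the untreated lines, of 21343 genes, a pseudocount of 0.1 CPM gave 3084 higher in SW620 and 3081 in SW480. The 1 CPM used above gave 1706 and 1889. A threshold of 4-fold gave 485 and 613, with 1 member (CA9) higher in SW620 and 5 (EPAS1, SLC2A3, SLC2A14, PDP1 and NDRG1) in SW480. Another scaling moved 18 of 111 member ratios beyond their counting interval. By raw counts instead of counts per kilobase, the PFKP share differed by -16.6 percentage points, PFKL by -0.272 and SLC2A3 by 5.10. Leaving out libraries moved the PFKP difference from -19.2 to -17.5, PFKM from 16.6 to 17.2, PFKL from 0.487 to 2.35, LDHB from 4.51 to 5.82, HK2 from 0.465 to 1.17, SLC2A3 from 3.54 to 3.88, ALDOC from 0.541 to 3.09, PDK1 from 0.0646 to 5.04, PDK2 from -5.48 to 0.0892 and PDK3 from -2.53 to 1.80. FOXA2 itself ranged from -1.01 to -0.79 on the log2 scale. Depth limits EPAS1, with at most 12 counts in a hairpin library. PDK2 and ALDOC had modest counts too, and their shFOXA2 libraries spread widely. PDK2 stood there at 7.26, 4.88 and 2.10 CPM and ALDOC at 25.04, 6.10 and 5.996 CPM. The wide error of BNIP3 goes with shFOXA2 replicate 1, at 2156 counts beside 76 to 124 in the other hairpin libraries.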
